A study of Mus musculus with 8 samples.

Results

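The genes described are the cytochrome P450 genes of families 1 to 4 in the mouse. They were taken as every probe without a control role whose gene name on the arrays begins with Cyp1, Cyp2, Cyp3 or Cyp4 followed by a subfamily letter and a number. This gave 83 genes of the 63329 gene names on both array designs, with 109 probes for 77 genes on the first slide and 99 probes for 76 genes on the second. There were 70 genes on both slides, 7 only on the first and 6 only on the second. The study compared 4 groups, each with 2 single-colour Agilent arrays hybridised with Cy3-labelled RNA. The first slide held Lin- bone marrow (BM) cells, the negative control, and BM-derived hepatocytes sorted 1 month after transplantation. Primary hepatocytes, the positive control, and BM-derived hepatocytes sorted 5 months after transplantation lay on the second slide, which had another array design. The donors were young female C57Bl6/J-Tg(UBCGFP)30Scha/J mice, which express eGFP from the ubiquitin C promoter. Their Lin- cells were obtained by magnetic depletion of marrow cells that carry antigens of mature blood lineages. The recipients were young male hemophilia A mice, which carry the F8tm1Kaz allele, lack functional clotting factor VIII and had received acetaminophen to injure the liver. BM-derived hepatocytes were thus donor-marked cells, recovered by collagenase perfusion, a low-speed spin and sorting for eGFP, and cells of several mice were pooled in an experiment. A sort of this kind keeps any eGFP-positive cell, whether it arose by differentiation or by fusion with a recipient hepatocyte. By staining of sex chromosomes the study counted fused cells as a minority of the sorted cells, and as fewer after 5 months. It also stained sorted cells for albumin to identify them as hepatocytes. The sex and strain of the mice that gave the primary hepatocytes are not given in the sources used here. The study describes 2 experiments on pooled mice, so a p-value measures the spread between pools and not between single animals.

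Cytochrome P450 enzymes are haem proteins of the endoplasmic reticulum that insert 1 atom of molecular oxygen into a substrate, with electrons supplied by P450 oxidoreductase and cytochrome b5. Families CYP1, CYP2 and CYP3 act mostly on drugs, environmental chemicals and steroids, whereas CYP4 enzymes hydroxylate fatty acids and eicosanoids at the end of the chain. Hepatocytes carry by far the most of these enzymes in the body and are zonated, with CYP2E1 and CYP1A2 around the central vein and CYP2F2 around the portal vein. Several mouse subfamilies (Cyp2c, Cyp2d, Cyp3a, Cyp4a) are tandem clusters of near-identical genes, some of which differ between male and female liver under the control of growth hormone. Transcription is set by liver factors such as HNF4A and C/EBP and, on exposure to chemicals, by the receptors AHR, CAR (Nr1i3), PXR (Nr1i2) and PPAR alpha.

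Since paralogs are so alike, the probes themselves are shown first, as they limit what a value of one gene can mean. The 60-base oligos of members were compared with each other, and a pair was listed where at least 30 aligned bases differed at 8 or fewer positions. There were 10 such pairs with 19 probes on the first slide and 7 pairs with 14 probes on the second. The stretches below are at most 30 bases long, 5′ to 3′ as deposited, with the letters that differ in capitals. Probes of Cyp2a4 and Cyp2a5, a pair of steroid and coumarin hydroxylases, matched over 38 bases with 3 differences on the first slide, and those of the fatty acid hydroxylases Cyp4a12a and Cyp4a12b over 47 bases with 2.
Cyp2a4 probe: aggacacTTCgtagacttgcagaggatatt
Cyp2a5 probe: aggacacAGAgtagacttgcagaggatatt
Cyp4a12a probe: cctAtcagcttacGtttaagagtcttgcca
Cyp4a12b probe: cctTtcagcttacAtttaagagtcttgcca
Labelled RNA of either gene could bind such probes, and the arrays cannot tell how much of a signal came from each. Other pairs shared long stretches and were nevertheless detected differently. Of the second-slide probes of the CYP3A genes Cyp3a41b and Cyp3a44, which aligned over 53 bases with 7 differences, that of Cyp3a41b was well above background on all 4 arrays and that of Cyp3a44 on 1 of 2 in each group. On the first slide the epoxygenase genes Cyp2j11 and Cyp2j13 shared 30 bases with 2 differences, and the Cyp2j13 probe was well above background on both 1-month arrays while that of Cyp2j11 was on none of the 4.
Cyp3a41b probe: cagtgtctgtAcaGgttaTcatCtaatTAA
Cyp3a44 probe: cagtgtctgtGcaAgttaAcatAtaatACG
Cyp2j11 probe: atgggcagtttaagaagaAagaatcCtttc
Cyp2j13 probe: atgggcagtttaagaagaGagaatcTtttc
One oligo bore different names on the designs, Cyp4a31 on the first and Cyp4a10 on the second, and is therefore given under both names across slides. Its first 30 bases are shown because they tie these genes together.
Cyp4a31 and Cyp4a10 probe: acgagtttctccatcttccctcctttctgc

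Signal was read as log2 of the background-subtracted intensity after subtraction of the array's 75th percentile, so 0 is the level of that percentile, and each gene was read from its probe with the highest mean signal. Values are given in the order of the replicate numbers, which are 3 and 4 for Lin- BM cells, 1 and 2 at 1 month, 2 and 4 for primary hepatocytes, and 1 and 3 at 5 months. Within a slide all probes were used and across slides only oligos of identical sequence, of which there were 13991 in all and 44 for members. Probes were tested if at least 1 group had them well above background on both of its arrays. Within a slide this could be either of its 2 groups, and across slides any of the 4. A gene could thus be tested across slides while dim in both groups compared. A gene was called at a Benjamini-Hochberg adjusted p under 0.05 in limma with a log2 change beyond 0.6. Between 47.7% and 58.6% of spots were well above background, 0 spots were saturated, and the 75th percentile of the intensity was 75.5 and 89.5 on the 1-month arrays against 122.2 to 193.4 on the other 6. Hepatocyte markers (7 genes on the first design and 8 on the second) had a summed linear level of 0.267 to 0.305 in Lin- BM cells, 1490 to 1550 at 1 month and 5310 to 6790 on the second slide, each relative to the array's 75th percentile. The designs carry different probes and genes of this list, so these sums show presence within a slide and are not compared between slides. All of these markers were well above background in every hepatocyte group. Lin- progenitor markers stood at 746 to 796 in Lin- BM cells and at 1.38 to 6.49 on the other arrays.

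The first question was which P450 genes were expressed in BM-derived hepatocytes 1 month after transplantation and not in the cells that had been transplanted. In Lin- BM cells 30 and 28 of the 77 member genes were well above background, and at 1 month 64 and 67. Of the 66 members tested, 60 (90.9%) were called higher at 1 month and 2 (3.03%) lower, against 28.8% called higher and 26.5% called lower of all 28522 genes. The median log2 change was 10.04 for members and 0.07 for all genes. Of the 66, 40 had passed the filter only through the 1-month arrays and had to differ. Among the 24 detected well above background by all 4 arrays, 21 were called higher and 1 lower. Members not tested, 11 in all, were Cyp2c65, Cyp2j7, Cyp2j8, Cyp2j11, Cyp2j12, Cyp2w1, Cyp4a30b, Cyp4f17, Cyp4f37, Cyp4f41-ps and Cyp4x1.

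Genes of drug and toxicant metabolism that mark the pericentral hepatocyte were among those with the widest gap. Cyp2e1, which oxidises ethanol and acetaminophen, had log2 signals of 8.00 and 7.93 at 1 month and of -6.59 and -6.58 in Lin- BM cells, where it was not well above background. It was at least 5630-fold higher at 1 month (adjusted p = 6.06e-05). Cyp1a2, a caffeine and arylamine oxidase, stood at 4.57 and 4.40 against -4.98 and -5.27, at least 506-fold higher. All 7 pericentral genes of the list were called higher, and all 7 were at background in Lin- BM cells. The other 5 were Cyp2a5, Cyp2c29, Cyp2c37, Cyp2c50 and Cyp3a11, with bounds of at least 7190-fold, 6420-fold, 5300-fold, 14000-fold and 5130-fold. On the other probe of Cyp2c37, also at background in Lin- BM cells, the log2 change was 10.7. The bound of Cyp2c37 therefore holds for the probe read and not for the gene as a whole. That probe aligned with the one of Cyp2c50 over 40 bases with 5 differences. For the 36 members called higher from a background level in Lin- BM cells, the bounds ran from 14.5-fold for Cyp2c38 to the 14000-fold of Cyp2c50. These bounds hold for the background-subtracted signal: with normexp the log2 change of Cyp1a2 was 6.88 in place of 9.61, which is below its bound. A bound compares the 1-month mean with the higher of the weakest detected signal and the probe's own signal on the Lin- arrays. Cyp2f2, the periportal gene that activates naphthalene, had signals of 5.86 and 7.18 at 1 month and of -5.14 and -5.89 in Lin- BM cells, at least 2060-fold higher (adjusted p = 0.000232). The zonal genes of both poles were therefore on in the 1-month cells, and Cyp2f2 was the one whose 1-month arrays lay farther apart, by more than 1 log2 unit.

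**Figure D1:**
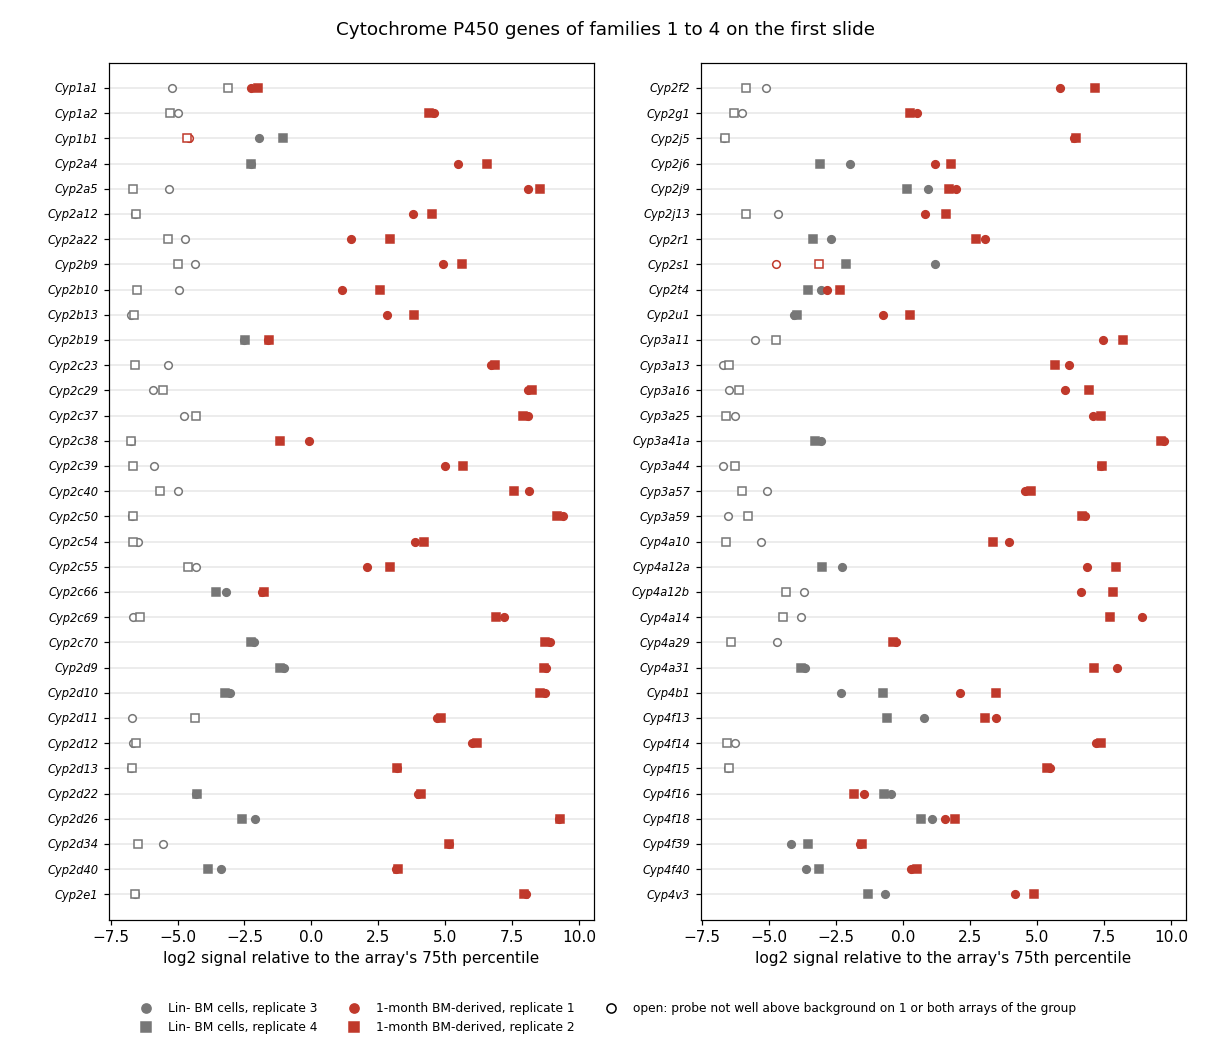
Log2 signal of the 66 tested P450 genes on each array of the first slide, relative to the array's 75th percentile (x axis), with grey points for Lin- BM cells and red points for 1-month BM-derived hepatocytes, and circle and square for the replicates. Open symbols mark a probe that was not well above background on 1 or both arrays of the group. Nearly all red points lie to the right of the grey ones; Cyp1b1, Cyp2s1 and Cyp4f16 are the exceptions.

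Of the 10 largest rises among members detected on all 4 arrays, 5 were in the Cyp2d cluster on chromosome 15. Cyp3a41a, a steroid hydroxylase higher in female liver, stood at 9.73 and 9.64 at 1 month and at -3.08 and -3.30 in Lin- BM cells, a log2 change of 12.87 (SE 0.26, adjusted p = 6.06e-05). Cyp2d10 rose by 11.77, Cyp2d26 by 11.62, Cyp4a31 by 11.31, Cyp2c70 by 11.03 and Cyp4a12a by 10.07. Cyp2d9, a male-biased testosterone hydroxylase, had signals of 8.75 and 8.70 against -1.03 and -1.19 and rose by 9.83 (SE 0.26, adjusted p = 6.55e-05). The remaining 3 were Cyp2d22 (8.35), Cyp2a4 (8.28) and Cyp2d40 (6.81). In all 10 the groups were separated by more than 6 log2 units, many times the distance between arrays of a group. By subfamily, every tested gene was called higher in Cyp2c (12 of 12, median log2 change 12.07), Cyp2d (9 of 9, 10.29), Cyp3a (8 of 8, 12.89), Cyp4a (6 of 6, 10.68), Cyp2a (4 of 4, 9.5), Cyp2b (4 of 4, 8.75) and Cyp2j (4 of 4, 5.25). These counts are not limited to genes detected on all 4 arrays, and of all genes 28.8% were called higher. In Cyp2c all but Cyp2c66 and Cyp2c70, and in Cyp3a all but Cyp3a41a, were at background in Lin- BM cells on the probe read. Such genes passed the filter only through the 1-month arrays and had to differ. The other subfamilies held such genes as well, so the medians include distances to background.

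Members that fell or were not called included several known mainly from other tissues. Cyp1b1, an oestrogen hydroxylase of stromal and other extrahepatic cells, stood at -1.94 and -1.05 in Lin- BM cells and at -4.58 and -4.64 at 1 month, where it was not well above background. It was at least 4.08-fold lower at 1 month (adjusted p = 0.00309). Cyp4f16 had signals of -0.46 and -0.70 in Lin- BM cells and of -1.46 and -1.84 at 1 month, and fell by 1.07 on the log2 scale (SE 0.29, adjusted p = 0.0308). Neither call was made with normexp background correction, nor that of Cyp4f16 when any 1 of the 4 arrays was left out. Another 4 members were tested and not called. Cyp2s1, an epithelial enzyme, had signals of 1.19 and -2.12 in Lin- BM cells and of -4.76 and -3.14 at 1 month, and its log2 change of -3.48 had an adjusted p of 0.0595. Cyp1a1, Cyp2t4 and Cyp4f18, a leukotriene hydroxylase of leukocytes, had log2 changes of 2.05, 0.71 and 0.89. Of the 8 tested genes in the list of P450 genes used mainly outside the hepatocyte, 3 were called higher (Cyp4b1, Cyp2g1 and Cyp2j9) and 2 lower (Cyp1b1 and Cyp4f16). Of all genes 28.8% were called higher and 26.5% lower, so these counts do not set the list apart. Cyp2g1 had passed the filter only through the 1-month arrays and Cyp1b1 only through the Lin- arrays. The median log2 change of the 8 was 0.80.

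Induced and sex-biased subsets were called higher throughout, except for the AHR targets. All 6 CAR and PXR targets were called higher, with a median log2 change of 12.76, and so were the 3 tested PPAR alpha targets, with a median of 11.31. Of all genes 28.8% were called higher. None of the 6 CAR and PXR targets was well above background in Lin- BM cells, so they passed the filter only through the 1-month arrays and had to differ. Their median is thus a distance to background. The same held for Cyp4a10 among the PPAR alpha targets. Of the AHR targets, Cyp1a2 was called higher, Cyp1b1 lower, and Cyp1a1 was not called. The 10 tested female-biased genes (median 12.22) and the 4 male-biased genes (median 9.95) were all called higher. Of the female-biased genes only Cyp2a4 and Cyp3a41a were well above background in Lin- BM cells on the probe read, so the others had to differ. The donors were female and the recipients male. Cyp2b9, female-biased in mouse liver, stood at 4.92 and 5.63 at 1 month and at -4.35 and -4.97 in Lin- BM cells, at least 846-fold higher. On its other probe, also dim in Lin- BM cells, the log2 change was 5.84, so this bound holds for the probe read and not for the gene as a whole.

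Changes were smaller and less uniform among the genes that serve these enzymes. The counts in this paragraph stand beside 28.8% called higher and 26.5% called lower of all 28522 genes. Of 13 genes for redox partners and haem supply, 8 were called higher and 1 lower, and the median log2 change was 2.12. Por, the oxidoreductase, stood at 7.78 and 7.13 at 1 month and at 4.63 and 4.56 in Lin- BM cells, a change of 2.86 (adjusted p = 0.00261), and Cyb5a changed by 4.75. Alas1, the first enzyme of haem synthesis outside red cells, rose by 2.45, whereas the late haem enzyme Ppox fell by 1.76 (adjusted p = 0.0404). Signal of Por and Alas1 was thus already well above background in Lin- BM cells, unlike that of most P450 genes. Of 12 tested receptors and regulators, 9 were called higher and 0 lower in limma at the adjusted p, and also 0 fell at an unadjusted p under 0.05. The rises included Ppara (11.35), Nr1h4 (9.74), Nr1i2 (9.27), Hnf4a (7.14), Nr1i3 (5.88) and Ahr (4.97). Nr3c1 and Stat5b had log2 changes of 0.29 and -0.28 and were not called. Of 15 tested P450 genes of the other families, 11 were called higher and 2 lower. Cyp7a1, the rate-limiting enzyme of bile acid synthesis, rose by 9.67, and the thromboxane synthase gene Tbxas1 and the cholesterol side-chain cleavage gene Cyp11a1 fell by 4.84 and 2.60. Where a gene of these lists was at background in 1 of the groups, its change is a distance to background and no measured fold.

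The question for the second slide was whether the P450 genes of 5-month BM-derived hepatocytes differed from those of primary hepatocytes. Of 76 members on that design, 63 and 64 were well above background in primary hepatocytes and 65 and 63 at 5 months. None of the 63 members tested was called, against 0.366% called higher and 0.186% called lower of all 19929 genes. At an unadjusted p under 0.05, limma gave 12 members (19.0%), 10 higher and 2 lower at 5 months, against 14.1% of all genes. The unadjusted t-test named in the methods gave 7 members and the same test after Benjamini-Hochberg adjustment 0. The arrays of the groups did not overlap in 36 of 63 members (57.1%), against 47.9% of all genes. Members had a median log2 change of 0.17 and a median size of change of 0.37, against 0.04 and 0.31 for all genes. With 2 arrays in each group an exact permutation test cannot go below 0.33, and the intervals given here are from the limma fit.

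Cyp1a1, the classical AHR target that oxidises polycyclic hydrocarbons, had the largest change. Its signals were -1.29 and -0.92 at 5 months and -3.51 and -2.71 in primary hepatocytes, with no overlap. The log2 change was 2.0 (SE 0.36, 95% interval 1.05 to 2.96), and the adjusted p of 0.135 missed the threshold. Without primary replicate 2 the change was 1.60, without primary replicate 4 it was 2.40, and in both cases Cyp1a1 was called, with 1 primary array assumed to vary like the 5-month arrays. The same omissions raised the calls over all genes from 110 to 1397 and 1307. Without a 5-month array the change was 2.19 or 1.82 and Cyp1a1 was not called, as no gene was. With normexp background correction it was 0.67 (adjusted p = 0.172), below the 1.17 of Cyp3a41b and the 1.09 of Cyp3a16 under that setting. Cyp1a2, its neighbour on chromosome 9, stood at 7.18 and 7.43 against 6.09 and 6.91, a change of 0.81 (95% interval -0.13 to 1.75, adjusted p = 0.409). The primary hepatocyte arrays lay 0.8 apart in both genes, more than the 5-month arrays.

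CYP3A genes were next in size. Cyp3a41b had signals of 5.53 and 5.80 at 5 months and of 4.29 and 4.68 in primary hepatocytes, a log2 change of 1.18 (adjusted p = 0.182). Cyp3a16, expressed in young and in female liver, stood at 7.54 and 7.58 against 6.48 and 6.45, a change of 1.09 (adjusted p = 0.136). The Cyp3a41b probe has a close relative in that of Cyp3a44, as the aligned stretches above show. Of the 7 tested Cyp3a genes, 6 were above the primary mean, with a median log2 change of 0.70, including Cyp3a11, the main PXR target, at 9.85 and 10.05 against 9.04 and 9.36 (0.75, adjusted p = 0.300). The other Cyp3a11 probe overlapped between the groups, at 6.97 and 7.35 against 7.20 and 6.47, with a change of 0.33. Cyp3a13 was below, by 0.37. The other 2 of the 5 largest changes were Cyp4f18 (0.85, adjusted p = 0.251) and Cyp2d40 (0.85, adjusted p = 0.289). As a Kupffer cell and leukocyte background to Cyp4f18, the summed level of 7 Kupffer cell markers was 31.3 and 67.0 in primary hepatocytes and 123 and 121 at 5 months, and that of 6 neutrophil markers was 4.97 and 4.23 against 65.3 and 3.63. The part of these cells in its value was not tested.

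Changes in the other subfamilies were small, and their signs ran mostly one way in Cyp2c and Cyp4f and not in Cyp2d, Cyp4a or Cyp2j. Cyp2c genes, which hydroxylate and epoxidise drugs and arachidonic acid, were below the primary mean in 10 of 12 cases (median log2 change -0.41, range -0.63 to 0.63). Cyp2c29 was among the lower of these, at 8.10 and 8.32 at 5 months and 8.91 and 8.70 in primary hepatocytes (-0.59, 95% interval -1.18 to 0.00, adjusted p = 0.355). All 8 tested Cyp4f genes were above it (median 0.23), and Cyp2d genes were split 5 to 5 (median 0.00). Since genes of a cluster share sequence and could share signal, these counts are not independent. Cyp2d9 stood at 6.96 and 7.29 against 7.37 and 7.66, a change of -0.39 (95% interval -1.04 to 0.27, adjusted p = 0.547). Cyp2b9 had overlapping values, 0.05 and 0.91 at 5 months and 2.05 and 0.26 in primary hepatocytes, and its change of -0.67 had the wide interval of -2.54 to 1.20 (adjusted p = 0.719).

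The members with the highest mean signal on the second slide were those of the abundant liver enzymes: Cyp2e1, Cyp2d26, Cyp2d11, Cyp3a11, Cyp2d10, Cyp2a4, Cyp2f2, Cyp2c50, Cyp2c54 and Cyp2c70. None of them was called, and except for Cyp3a11 their log2 changes lay between -0.27 and 0.38. Cyp2e1 had signals of 10.10 and 10.30 at 5 months and of 10.10 and 10.49 in primary hepatocytes, a change of -0.10 (95% interval -0.75 to 0.56). Its other probe did not overlap between the groups, at 8.19 and 8.48 against 8.82 and 9.45, with a change of -0.80 (adjusted p over probes = 0.345), outside that interval. Cyp2f2 stood at 9.14 and 9.39 against 9.39 and 9.18, a change of -0.02 (95% interval -0.62 to 0.58). An interval therefore covers the spread between arrays and not the difference between probes of a gene.

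Precision was not equal among members, because the primary hepatocyte arrays differed in some genes by far more than the 5-month arrays. Cyp2u1 stood at 7.29 and 9.38 in primary hepatocytes and at 8.13 and 8.24 at 5 months on the probe read. Its other probes were far weaker, with replicate 4 the lower primary array. One had -0.03 and -0.16 in primary hepatocytes and 0.71 and 1.03 at 5 months, the other -1.30 and -2.42 against -1.34 and -1.25. Cyp2a4 had 8.50 and 10.40 against 9.57 and 9.74, and Cyp2g1 had -0.49 and 1.23 against 0.67 and 0.81. On the probe read for each of the 3 genes, the 5-month values fell between those of the primary arrays, which the other Cyp2u1 probes did not show. Of 63 members, 5 differed by more than 1 between the primary arrays and 1, Cyp2c66, between the 5-month arrays, with median distances of 0.30 and 0.22. Replicate 4 was the higher primary array for Por (5.97 and 8.72), Alas1 (6.51 and 9.45), Nr1i3 (5.23 and 6.39) and Ppara (5.73 and 7.11) as well. It was the lower one for Cyp2b9 (2.05 and 0.26).

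**Figure D2:**
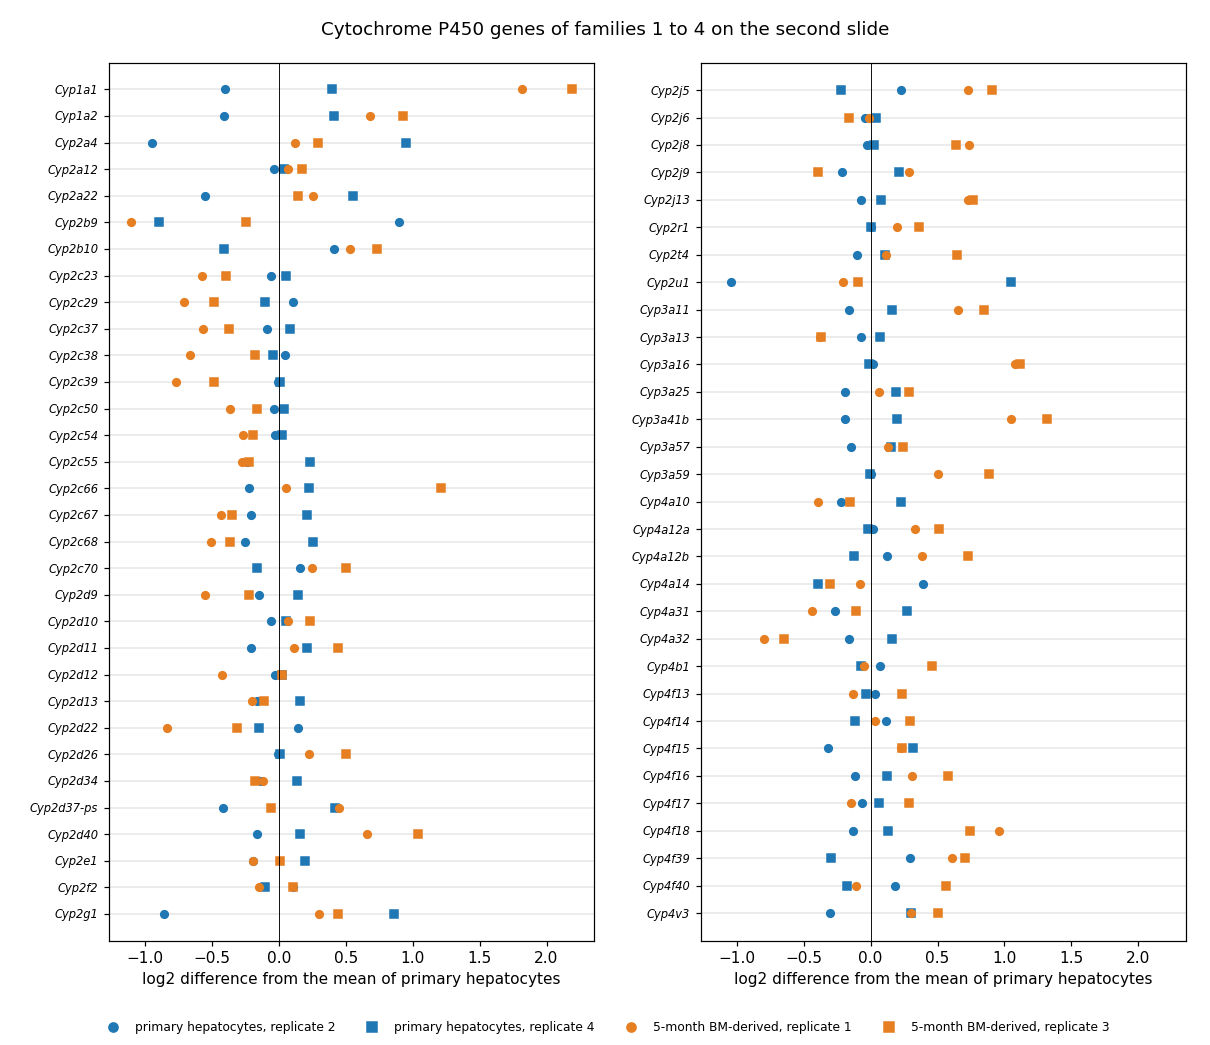
Log2 signal of the 63 tested P450 genes on each array of the second slide, as the difference from the mean of the primary hepatocyte arrays (x axis), with blue points for primary hepatocytes and orange points for 5-month BM-derived hepatocytes, and circle and square for the replicates. Cyp1a1 lies farthest to the right at 5 months, Cyp2c genes lie mostly to the left of 0, and the primary arrays are widest apart in Cyp2u1 and Cyp2a4.

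None of the partner, receptor or other P450 lists had a called member in 5-month against primary hepatocytes. Median log2 changes were 0.05 for 13 partner and haem genes, -0.35 for 13 receptors and regulators and 0.23 for 14 P450 genes of the other families. By subset of the members, the medians were 1.40 for the 2 tested AHR targets, -0.04 for CAR and PXR targets, -0.28 for PPAR alpha targets, 0.13 for male-biased, -0.11 for female-biased and -0.18 for pericentral genes. All of these except that of the AHR targets lay within 0.4 of the median of all genes.

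Across slides, 37 of the 43 members with a shared oligo were tested. Slide, array design and group cannot be told apart here. Cyp2c65, Cyp2j11, Cyp2w1, Cyp4a29, Cyp4f37 and Cyp4f41-ps were not tested for want of signal. Against Lin- BM cells, 31 members were called higher and 1 lower at 5 months, where 29.3% and 37.8% of all 9219 genes were, and 30 higher and 2 lower in primary hepatocytes, where 29.3% and 38.1% were. Median log2 changes of members were 9.75 and 10.36, against -0.30 and -0.29 for all genes. In each comparison, 22 of the 37 were well above background on both hepatocyte arrays but not on both Lin- arrays, and had to differ. The medians thus include distances to background. Among the 12 detected on all 4 arrays of a comparison, 8 were called higher and 0 lower in each. Both comparisons share the Lin- arrays. Cyp1b1 was the member called lower in both, with signals of -3.31 and -2.57 in Lin- BM cells, -8.25 and -7.83 in primary hepatocytes and -7.90 and -7.60 at 5 months. It was at least 8.20-fold lower in primary hepatocytes and at least 6.61-fold lower at 5 months. These bounds hold for the processing used here. Under other settings the log2 changes were as small as -0.81 and -0.75, which lie below the bounds, though the calls remained.

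Between the time points, 3 members were called higher and 5 lower at 5 months than at 1 month, against 5.81% and 11.3% of all genes, whose median log2 change was -0.14. Cyp2f2 had signals of 4.41 and 5.78 at 1 month, 7.51 and 7.72 at 5 months and 7.68 and 7.51 in primary hepatocytes. It was higher at 5 months by 2.52 (SE 0.50, 95% interval 1.32 to 3.72, adjusted p = 0.0212), and the 1-month arrays did not overlap with those of either other hepatocyte group. Cyp1a2 stood at 4.35 and 4.24 at 1 month and at 5.56 and 5.76 at 5 months, a change of 1.37 (95% interval 0.62 to 2.12, adjusted p = 0.0322), with 4.38 and 5.24 in primary hepatocytes. Cyp2d12 rose from 4.54 and 4.79 to 5.44 and 5.84, a change of 0.98 (adjusted p = 0.0375). Among those lower at 5 months, Cyp2c54 had 2.43 and 2.80 at 1 month, 0.77 and 1.19 at 5 months and 2.90 and 2.23 in primary hepatocytes, a change of -1.63 (adjusted p = 0.0213). So for Cyp2f2 and Cyp2d12 the 5-month values met those of primary hepatocytes, and for Cyp2c54 it was the 1-month values that did.

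The remaining 4 calls concerned weak signals. Cyp2b13, female-biased in liver, stood at -3.96 and -3.36 at 1 month and was not well above background at 5 months (-6.24 and -5.56) or in primary hepatocytes (-7.45 and -7.03). It was at least 4.01-fold lower at 5 months (adjusted p = 0.0282). This oligo was well above background in Lin- BM cells too, at -4.45 and -5.75. Cyp4f39 had -3.06 and -2.92 against -4.58 and -4.52 at 5 months (-1.56, adjusted p = 0.0172), and Cyp2c66 had -3.29 and -3.15 against -5.53 and -4.41 (-1.75, adjusted p = 0.0352). The weakest detected signals on the 5-month arrays were -5.79 and -5.54, so Cyp2c66 lay close to the limit on replicate 1. Cyp1b1 was not well above background in either group and is given no fold. With normexp the log2 changes of Cyp2b13, Cyp2c66 and Cyp4f39 were -0.88, -0.84 and -0.81, still called, with the fold of Cyp2b13 below the bound given. None of the 8 calls was made when 1-month replicate 1 or 5-month replicate 1 was left out. Without 1-month replicate 2 the call of Cyp2f2 remained, and without 5-month replicate 3 that of Cyp2c66.

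**Figure D3:**
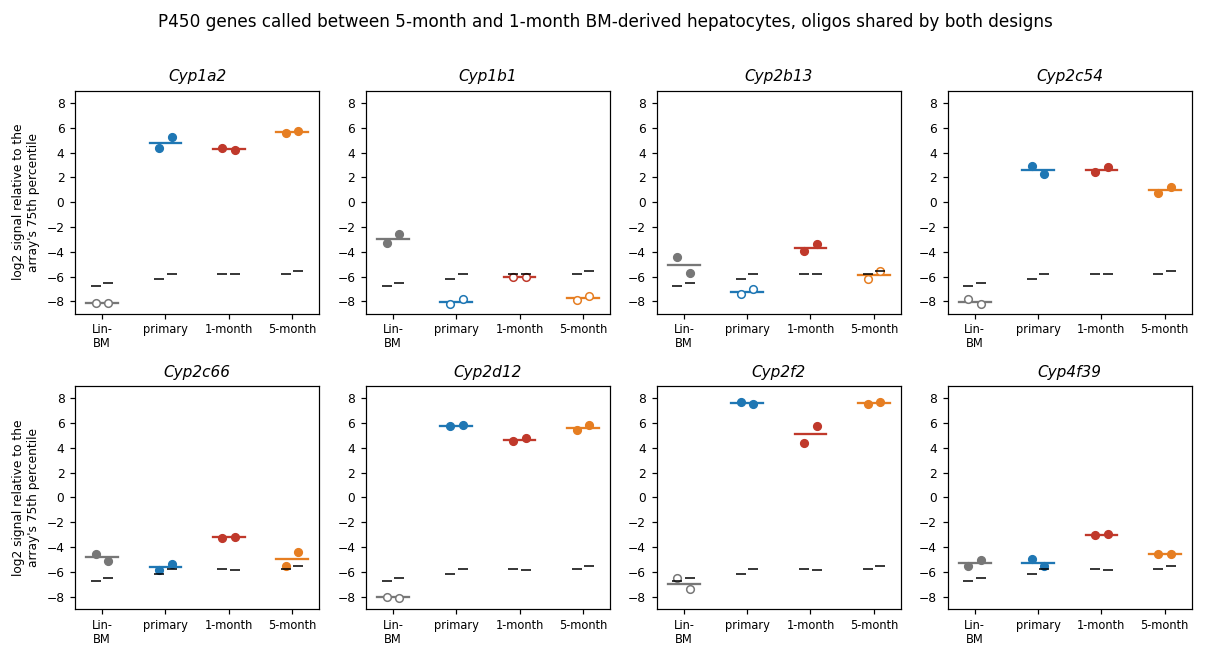
Log2 signal relative to the array's 75th percentile (y axis) of the 8 P450 genes called between 5 months and 1 month, on oligos shared by both designs, array by array in the 4 groups named on the x axis (Lin- BM, primary, 1-month and 5-month). Coloured lines are group means, open points were not well above background, and short black dashes mark the weakest signal of any probe well above background on that array. Cyp2f2 at 1 month lies below primary and 5-month hepatocytes, and Cyp2b13, Cyp2c66 and Cyp4f39 lie near the dashes in several groups.

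In 1-month against primary hepatocytes, 5 members were called higher and 3 lower, against 11.6% and 5.1% of all genes, whose median log2 change was 0.17. The members lower at 1 month were Cyp2f2 (-2.50, adjusted p = 0.0209), Cyp2d12 (-1.13, adjusted p = 0.0243) and Cyp2d22 (-1.10, adjusted p = 0.0314). Cyp2d22, with signals of 2.55 and 2.72 at 1 month and 3.86 and 3.61 in primary hepatocytes, stood at 2.97 and 3.44 at 5 months. Those called higher at 1 month were Cyp2b13 (at least 4.98-fold), Cyp2c66 (2.42), Cyp4f39 (2.26), Cyp2c38 (2.26, adjusted p = 0.0481) and Cyp1b1, the last dim in both groups. Cyp2c38, female-biased, had signals of -1.55 and -2.57 at 1 month, -5.16 and -3.46 in primary hepatocytes and -3.39 and -3.89 at 5 months. Within the second slide, and so in the Cyp2c count above, it was read from another oligo. That one stood at 8.97 and 8.88 in primary hepatocytes and at 8.26 and 8.75 at 5 months (-0.42). On the same scale the shared oligo had -3.46 and -1.79 against -1.77 and -2.22 (0.63), so the 2 probes differed widely in level and in sign. Of the 7 female-biased genes with a shared oligo, 2 were called higher and 0 lower at 1 month, while Cyp2b9 (-1.66, adjusted p = 0.136) and Cyp2a4 (-1.58, adjusted p = 0.229) had negative changes. With normexp the calls of these genes held, but the log2 changes of Cyp2b13, Cyp2c66 and Cyp4f39 were 0.96 each and that of Cyp2c38 was 1.14, so the fold of Cyp2b13 lies below the bound given. The calls of Cyp2d12 and Cyp2d22 were lost when any 1 of the 4 arrays was left out, that of Cyp2f2 in 3 of the 4 cases (all but 1-month replicate 2), that of Cyp2c38 also in 3 (all but primary replicate 4, with changes of 1.41 to 3.10), that of Cyp2c66 in 2 (primary replicate 2 and 1-month replicate 2), and those of Cyp2b13 and Cyp4f39 in none. Comparisons with primary hepatocytes and with 5-month cells share the 1-month arrays.

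The other pericentral genes with a shared oligo were not called between the time points. Cyp2c29, Cyp2c37 and Cyp2c50 had log2 changes of -0.17, -0.55 and -0.46, and Cyp3a11 had 6.0 and 6.82 at 1 month against 5.34 and 5.68 at 5 months (-0.90, adjusted p = 0.168). Cyp1a2 was the 1 called of 5 pericentral genes, and Cyp2f2 the only periportal gene on the list. The PPAR alpha targets Cyp4a14 and the oligo of Cyp4a10 and Cyp4a31 stood 1.12 and 1.22 lower at 5 months in their means (adjusted p = 0.155 and 0.0528). Of 7 partner and haem genes with a shared oligo, Ppox was called higher at 5 months (1.77, adjusted p = 0.0329), and of 5 receptors none was called, Nr1i2 having the largest positive change (1.32, adjusted p = 0.0890). The 5 Kupffer cell markers with a shared oligo had a median log2 change of 1.75 between the time points, and the part of such cells in these values was not tested.

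Where a gene had several probes, the direction was shared more often than the size. On the first slide 24 members had at least 2 tested probes, 50 in all, and all probes of a gene were called higher in 23 of them. The exception was Cyp2b13, with log2 changes of 10.01 on one probe and 1.41 on the other (adjusted p over probes = 0.0556). It is the second of these, well above background in Lin- BM cells, whose oligo was shared by both designs. Changes of probes of 1 gene differed by more than 1 in 19 of the 24 and by more than 3 in 8. The widest gap was 9.80, in Cyp3a44, whose probes gave 13.93 and 4.13. Cyp4a31 had 11.31 and 5.00, and Cyp2a4 had 8.28 and 14.09, the latter on the probe aligned with Cyp2a5 above. On the second slide, 16 members had 36 such probes, with a median gap of 0.45. The gap was over 1 in 4 of them, 4 had probes of opposite sign, and in none were probes called in opposite directions. Cyp2c54 had log2 changes of -0.23, -1.62 and -1.48 on its 3 probes, and its brightest probe gave the smallest change. The oligo shared by both designs, on which Cyp2c54 was called between the time points, was the one with -1.62. Cyp4a31 likewise had -0.28, -0.71 and -1.67.

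**Figure D4:**
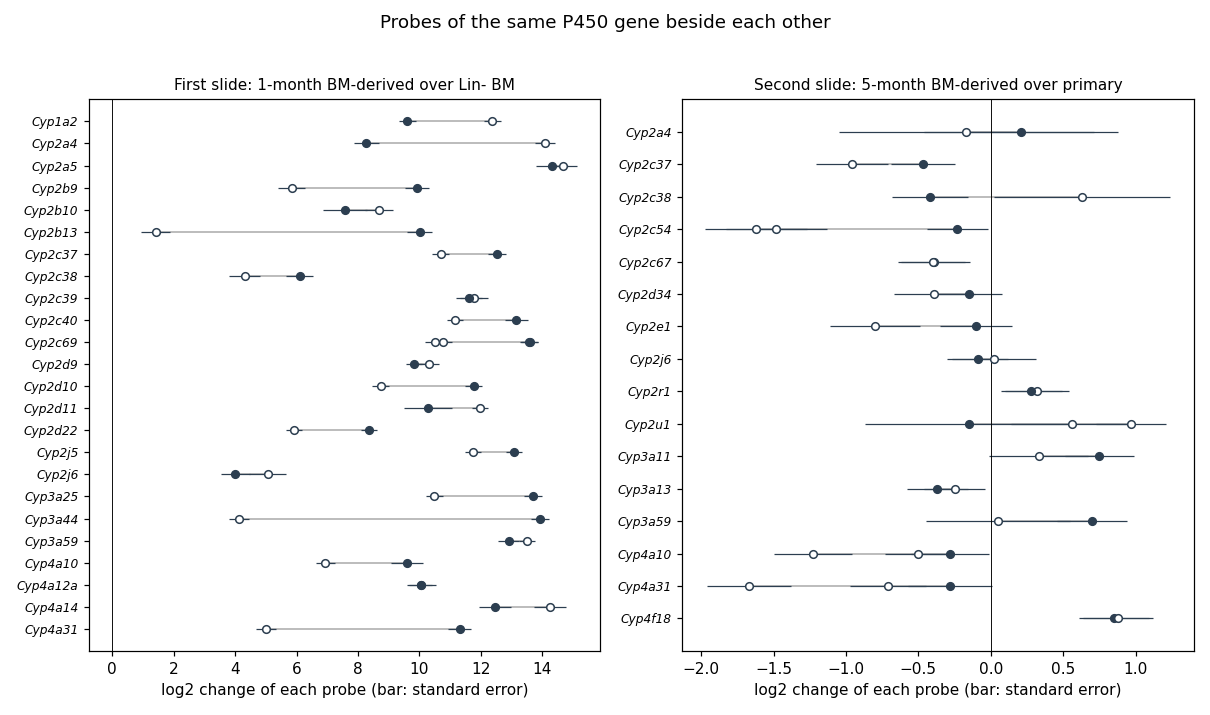
Log2 change of each probe (x axis) for P450 genes with at least 2 tested probes, 1-month over Lin- BM cells on the left and 5-month over primary hepatocytes on the right. Filled points are the probe read for the gene, open points its other probes, and bars the standard error. On the left all probes lie to the right of 0 with gaps of up to 9.80, and on the right Cyp2a4, Cyp2c38, Cyp2j6 and Cyp2u1 have probes on both sides of 0.

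To place these values beside the regulatory sequence, the 250 bases before the start of each gene were taken from RefSeq (GRCm38.p6), which held a window for 65 of the 83 members and 27025 genes in all. Letters were searched on both strands. TATAAA, the letters of the TATA box, was present in 40.0% of the member windows and in 13.0% of all, counted at any place in the window. TGGACTT, a core of the HNF4 site, was in 18.5% and 3.32%, and 7 of its 12 members were Cyp2c and 4 were Cyp3a genes. TTNNGCAA, a C/EBP form, was in 21.5% and 9.55%, and AGGTCA, a nuclear receptor core, in 24.6% and 13.8%. GCGTG, the core bound by AHR, was in 18.5% and 28.2%, and TTCNNNGAA, the STAT form, in 6.15% and 7.18%. A match is a description of letters, and windows of a cluster resemble each other by descent. The windows of the genes on which the comparisons turned are printed with the matches in capitals. Cyp1a2 (chr9:57683656-57683905, minus strand) and Cyp2f2 (chr7:27119705-27119954, plus strand) were called between the time points, which lay on different slides. Cyp3a11 (chr5:145879855-145880104, minus strand) was at background in Lin- BM cells and high in all hepatocyte groups. Cyp1b1 (chr17:79715062-79715311, minus strand) was the member with the opposite pattern.
Cyp1a2: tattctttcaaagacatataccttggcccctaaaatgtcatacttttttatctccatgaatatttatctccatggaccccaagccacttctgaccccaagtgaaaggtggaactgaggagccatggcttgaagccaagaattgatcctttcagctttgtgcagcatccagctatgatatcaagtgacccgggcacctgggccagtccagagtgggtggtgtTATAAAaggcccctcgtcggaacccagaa
Cyp2f2: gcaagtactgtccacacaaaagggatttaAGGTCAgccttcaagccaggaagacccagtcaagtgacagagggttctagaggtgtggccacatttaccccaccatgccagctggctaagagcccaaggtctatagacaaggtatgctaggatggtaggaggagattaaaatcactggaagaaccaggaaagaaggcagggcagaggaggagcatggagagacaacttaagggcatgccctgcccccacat
Cyp3a11: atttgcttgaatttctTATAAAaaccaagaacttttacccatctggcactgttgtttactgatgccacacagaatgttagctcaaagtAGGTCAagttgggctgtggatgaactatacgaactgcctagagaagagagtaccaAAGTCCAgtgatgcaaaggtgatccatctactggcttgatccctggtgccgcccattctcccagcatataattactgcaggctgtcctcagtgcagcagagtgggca
Cyp1b1: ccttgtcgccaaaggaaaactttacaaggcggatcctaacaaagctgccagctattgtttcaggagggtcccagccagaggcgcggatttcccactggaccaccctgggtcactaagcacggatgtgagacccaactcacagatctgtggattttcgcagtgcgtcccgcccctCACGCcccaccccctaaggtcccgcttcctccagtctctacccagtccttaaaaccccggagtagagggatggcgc
In these windows Cyp1a2 held TATAAA close to the start of the gene and Cyp2f2 the nuclear receptor core. Cyp3a11 held the nuclear receptor core and the HNF4 core, the latter as its reverse complement. It also held TATAAA, but near the end of the window farthest from the start of the gene. Cyp1b1 held the core bound by AHR, also as its reverse complement, and none of the other letters searched.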

How the data were processed

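RNA of 8 samples in 4 groups was labelled with Cy3 and hybridised to Agilent arrays of 2 designs. Per the labels the images were read with Agilent Feature Extraction. The deposited scanner files hold intensities: the processed signal (gProcessedSignal), from which the background had been subtracted, and the mean and background signals of each spot, beside flags for spots well above background, saturated or outlying. The authors' processed values are on the log2 scale and were shifted in GeneSpring GX to the 75th percentile. After log2 the deposited intensities differed from these deposited values by a constant for each array, within 0.02 for 99.65% to 99.96% of probes. The version of Feature Extraction is stated in the study's methods and not in the labels.

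Here log2 of the processed signal was taken and each array's 75th percentile subtracted, over all probes within a slide and over shared oligos across slides. Control and outlier spots were left out. For all genes at once, limma 3.58.1 (R 4.3.3, version 1.17.8 of data.table) estimated group means, within a slide on 4 arrays and across slides on 8, with Benjamini-Hochberg adjustment. Tables of sequences and plots were made with Python 3.11.15, pandas 2.3.3 and matplotlib 3.10.9. The scripts were tested on simulated data. Genes were named through RefSeq accessions for 95 member probes of the first slide and 96 of the second, and by symbol for 14 and 3, so the name Cyp2c44 of the files became Cyp2c23. A probe named Cyp2d22 carried an accession of Cyp2d11, and one named Cyp4f16 an accession of Cyp4f37.

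Genes named singly were members of the lists, the 10 with the highest signal in hepatocytes, the 10 largest rises at 1 month among those detected on all 4 arrays, all called members or, where none was called, the 5 largest changes, and Cyp2d9, Cyp1a2 and Cyp2b9. Members, lists and rules were chosen with earlier results of these data known. Other members, such as Cyp3a13, are named as examples chosen after their values were seen. The alternatives were normexp (offset 50), quantile normalization, the deposited value table, no filter, the mean of probes, each probe by itself, another set of probes for the percentile, no limit on the log2 change, the methods' t-test, slide as a block, and leaving out each array. A few items of the lists are not reported here. The 2 arrays of a group limit the precision.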

Additional observations from a re-analysis of the deposited data

Results flagged for a closer look

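Of the 37 members tested across slides, 8 differed between the time points of the BM-derived hepatocytes in a test of the difference itself, which runs across slides and designs. The 3 called higher and 5 called lower stand beside 5.81% and 11.3% of all genes, shares near those of the members. None of the 8 was called without 1-month replicate 1 or 5-month replicate 1, 1 (Cyp2f2) was without 1-month replicate 2, and 1 (Cyp2c66) without 5-month replicate 3. Log2 changes at 5 months against 1 month were 2.52 for Cyp2f2, 1.37 for Cyp1a2 and 0.98 for Cyp2d12, and -1.56 for Cyp4f39, -1.63 for Cyp2c54, -1.75 for Cyp2c66 and -2.24 for Cyp2b13. Cyp1b1 had a value of -1.72, but neither group was well above background for it. In 7 of the 8 the adjusted p lay between 0.0172 and 0.0352, and in Cyp2d12 it was 0.0375. The hepatocyte markers with a shared oligo had a median log2 change of 0.64 in the same comparison, and Kupffer cell markers 1.75. Their part in these values was not tested, and slide and time cannot be told apart.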

How the results depend on the processing

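Of 84 counts of called members under other settings, 69 were within 1.5 times the count reported. In 1-month cells against Lin- BM cells, 62 members were called, 57 to 61 with 1 array left out (Cyp2b19 and Cyp4f16 lost with any array, Cyp2j9 without Lin- replicate 4 or either 1-month array, Cyp2b13 without either 1-month array, Cyp2c66 without 1-month replicate 2), and 37 of 37 on shared probes with slide as a block, where fewer genes were tested. Against primary hepatocytes 8 were called at 1 month, 0 with the methods' t-test after Benjamini-Hochberg adjustment, 13 with normexp, and 3 to 7 with 1 array left out. Between 5 months and 1 month 8 were called, 0 with that t-test, 17 with normexp, and 0 to 1 with 1 array left out. In 5-month against primary hepatocytes 0 were called, 7 with the unadjusted t-test, and 0 to 1 (Cyp1a1) with 1 array left out. Cyp1a1 was called without either primary array. Against Lin- BM cells 32 were called at 5 months and 32 in primary hepatocytes, and 31 to 33 in each with 1 array left out (Cyp3a44 lost without any 1 array at 5 months, and in primary hepatocytes without any except primary replicate 2). The cause of these shifts was not tested. Cyp2b13 in primary hepatocytes against Lin- BM cells reversed from -2.14 to 0.07 with normexp, and Cyp2b9 in 5-month against primary hepatocytes from -0.67 to 0.22 without primary replicate 2 (-1.57 without replicate 4). Over all genes, 110 were called in 5-month against primary hepatocytes, 0 without either 5-month array, 1397 without primary replicate 2 and 1307 without replicate 4, 38 without the filter, 189 by probe, and 1363 with the unadjusted t-test. In 1-month cells against Lin- BM cells 15777 were called, 4566 with the t-test after adjustment, 26463 without the filter, 5778 on shared probes with the block and 9897 without 1-month replicate 2. Against primary hepatocytes 1542 were called at 1 month, 2 with that t-test, 2428 with normexp, 4035 without the filter and as few as 593 with 1 array left out. Between the time points 1577 were called, 14 with that t-test, 2692 with normexp and 343 to 832 with 1 array left out. Against Lin- BM cells, that t-test gave 3328 in place of 6183 at 5 months and 2503 in place of 6211 in primary hepatocytes. Normexp lowered the size of several changes by more than 1.5-fold, as given above for Cyp1a1, Cyp1a2, Cyp2b13, Cyp2c38, Cyp2c66 and Cyp4f39, and moved the median of all genes at 1 month against Lin- BM cells from 0.07 to 0.36. No paired analysis was possible because no groups share 2 replicate numbers. The setting called slide as a block was 1 fit of group means to all 8 arrays on shared probes. It held no slide term, since each group lies on 1 slide, so it is no adjustment for slide. Across slides no block could be fitted. Signal was lowest on the 1-month arrays, as given above.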

Other observations

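On the arrays, 5 oligos carried an accession of a P450 gene of families 1 to 4 but another name in the files (Gm9667, EG243881, Gm12836, Gm12839 and Gm9705) and were not counted among the members. They were well above background on 0 arrays. Among P450 genes of the other families, Cyp46a1, which hydroxylates cholesterol in brain, stood at -1.46 and -0.59 at 1 month and at -2.74 and -2.34 at 5 months on a shared oligo (log2 change -1.52, adjusted p = 0.0334 in limma). Cyp21a1, the steroid 21-hydroxylase, had signals of 1.78 and 1.11 at 5 months and of -1.43 and 0.11 in primary hepatocytes, with a log2 change of 2.10 and an adjusted p of 0.271. Tbxas1, a gene of macrophages and platelets, had -1.69 and -1.22 against -3.46 and -2.91 (1.73, adjusted p = 0.138), beside the Kupffer cell markers, whose log2 changes were positive in all 7 tested genes (0.70 to 4.67), with none called.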
